A study of Homo sapiens with 6 samples.

Results

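The dual-specificity MAP kinase phosphatases were followed through 6 bulk RNA sequencing libraries of HaCaT, a human keratinocyte line that grows without limit in culture. The family was taken as 10 genes chosen by name, DUSP1, DUSP2, DUSP4, DUSP5, DUSP6, DUSP7, DUSP8, DUSP10, DUSP14 and DUSP16, out of 27945 genes in the deposited table. All 10 were found, each at 1 place in the genome. All 10 also reached 1 RPKM (reads scaled to exon length and to library size) in at least 1 library, as did 12925 genes in all. DUSP8 reached it in 1 knockout IL-1α library only.

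The libraries came from cells carrying the label MAPK14-null, MAPK14 being the gene of the p38α kinase, and from wild-type cells. Cells of each genotype were given IL-1α in PBS for 4 h (2 libraries of each genotype) or PBS alone for 4 h, called unstimulated here (1 library of each genotype). All cells grew in DMEM with serum and antibiotics. The labels describe neither the edit in MAPK14 nor whether the knockout cells are 1 clone, and nothing says that replicates came from separate cultures, so p-values measure only the spread between these libraries.

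MAP kinases are switched on by phosphorylation of a threonine and a tyrosine in their activation loop. Dual-specificity phosphatases remove both phosphates, and many of their genes are themselves induced by MAP kinase signalling, which makes them feedback brakes. Some act mainly on the stress kinases p38 and JNK (here DUSP1, DUSP8, DUSP10 and DUSP16), others mainly on the growth-factor kinase ERK (DUSP5, DUSP6 and DUSP7). IL-1 receptors activate p38, JNK and ERK in keratinocytes, and p38α also controls the stability of messages with AU-rich elements.

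Library depth, recovered from the steps of the low values, ran from 21890124 to 34967076 reads in knockout libraries and from 16293708 to 18534636 reads in wild-type libraries. MAPK14 was still transcribed in the knockout, at 11.0 and 7.41 RPKM with IL-1α and 11.3 RPKM without, against 13.3 and 14.8 RPKM with IL-1α and 14.4 RPKM without in wild type. A level over the whole gene does not test the label, since the edited part is not stated. All 8 keratinocyte markers were detected, with a summed level of 3373 to 4043 RPKM in knockout libraries and 5938 to 7224 RPKM in wild-type libraries. The markers did not move together: KRT14, KRT17, S100A2, SFN and DSG3 were lower in every knockout library, whereas KRT5, TP63 and ITGB4 overlapped. For DSG3 the gap was wide only in knockout IL-1α replicate 2. Knockout cells had 67.7 and 29.7 RPKM of DSG3 with IL-1α and 69.4 RPKM without. Wild-type cells had 73.0 and 79.6 RPKM of it with IL-1α and 73.3 RPKM without. TP63 had 51.1 and 34.7 RPKM in knockout with IL-1α and 42.8 RPKM without. In wild type it had 27.8 and 35.9 RPKM with IL-1α and 26.6 RPKM without. How far these differences bear on the phosphatases was not tested. Of markers of other cell types, 0 of 5 leukocyte genes reached 1 RPKM in a library. The count was 2 of 6 for fibroblast genes (COL1A1, up to 1.20 RPKM, and LUM, up to 1.19 RPKM), 1 of 5 for melanocyte genes (MITF, 2.61 to 4.48 RPKM) and 1 of 4 for endothelial genes (CDH5), with TYR and PECAM1 at 0 everywhere. CDH5 had 10.3 and 1.84 RPKM in knockout with IL-1α and 2.94 RPKM without, against 11.4 and 11.8 RPKM with IL-1α and 1.45 RPKM without in wild type, while VWF and KDR stayed at or below 0.374 RPKM; the part of CDH5-expressing cells in the results was not tested. Log2 values of the 2 replicates correlated at 0.969 across genes in knockout IL-1α libraries and at 0.985 in wild-type ones.

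Transcript levels differed widely within the family. DUSP14 had the highest mean over the 6 libraries, 51.6 RPKM, ahead of DUSP6 (37.2 RPKM), DUSP10 (34.2 RPKM), DUSP7 (25.8 RPKM), DUSP4 (15.8 RPKM) and DUSP5 (8.86 RPKM). DUSP1 (2.31 RPKM), DUSP16 (1.49 RPKM), DUSP2 (1.18 RPKM) and DUSP8 (0.682 RPKM) were low. Some neighbours in this order changed places between libraries. DUSP14 was above DUSP6 in 5 of 6 libraries, DUSP6 above DUSP10 in 3, DUSP10 above DUSP7 in 4 and DUSP16 above DUSP2 in 5. The other neighbours kept their order in all 6 libraries, but the ranges of DUSP7 and DUSP4, of DUSP1 and DUSP16, and of DUSP2 and DUSP8 overlapped. A total of 1351 genes had a higher mean than DUSP14, and 12715 had a higher mean than DUSP8. Among the p38/JNK-directed genes DUSP10 held 83.1% to 88.3% of the summed level in knockout libraries and 89.6% to 91% in wild-type libraries.

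**Figure D1:**
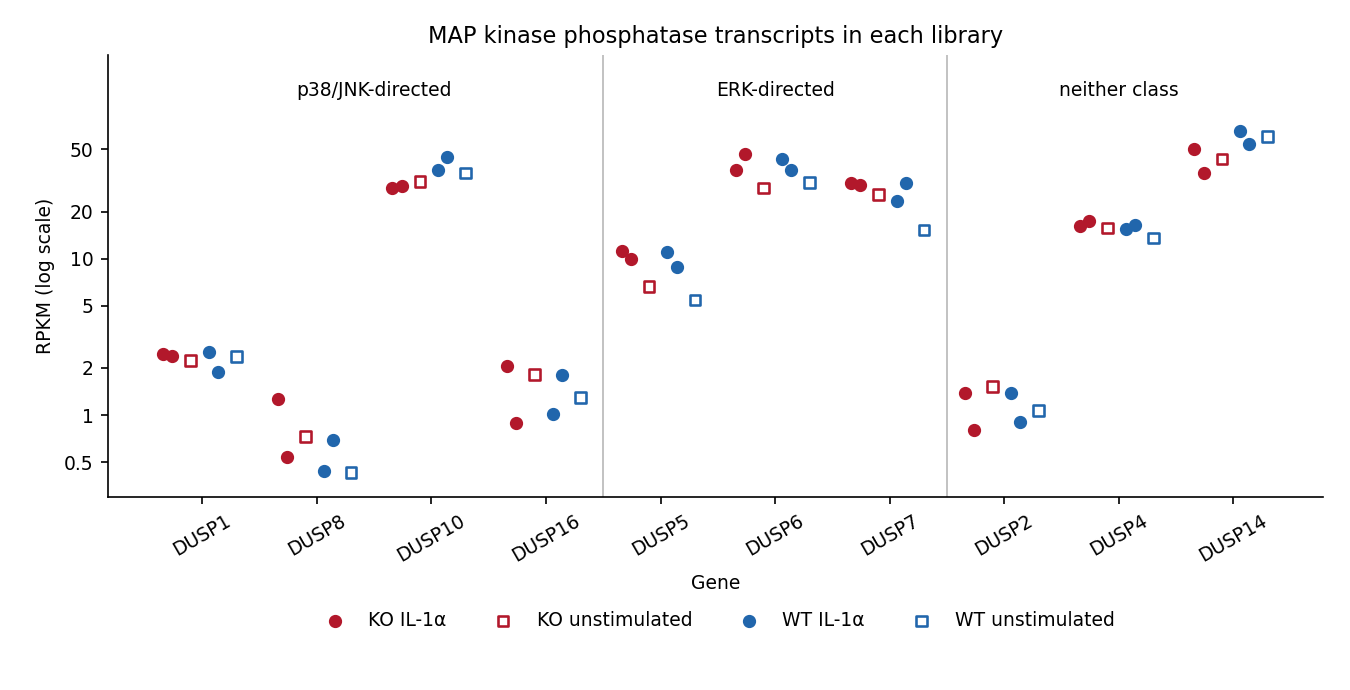
Level of each phosphatase transcript (RPKM, log axis) in every library; filled circles are IL-1α libraries, open squares unstimulated ones, red knockout and blue wild type, and each point is 1 library. Of the p38/JNK-directed genes only DUSP10 lies above 2.52 RPKM. DUSP4, DUSP5, DUSP6 and DUSP7 have their open squares below their filled circles in both genotypes (14.1% of all genes).

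DUSP1, the nuclear phosphatase that is the classical early brake on p38 and JNK (chromosome 5, 172195093 to 172198203, minus strand, hg19), stood low and level. Knockout cells had 2.47 and 2.40 RPKM with IL-1α and 2.23 RPKM without, from 109, 144 and 157 reads. Wild-type IL-1α libraries gave 2.52 and 1.87 RPKM and the unstimulated wild-type library 2.37 RPKM, from 83, 70 and 80 reads. The 2 genotypes overlapped, and in wild type the unstimulated value lay between the IL-1α values. The log2 response to IL-1α was 0.11 in knockout (95% interval -0.56 to 0.77; limma adjusted p = 1) and -0.10 in wild type (-0.77 to 0.57; limma adjusted p = 0.874). At 4 h a rise of DUSP1 above 1.71-fold in knockout or 1.48-fold in wild type lay outside these intervals; earlier times were not sampled.

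Sequence elements known for rapid induction and turnover are present in DUSP1 and in its low relative DUSP8. The upstream windows below, the 250 bases before the start site, are shown because they are the only member windows with the full cAMP response element TGACGTCA, marked in capitals (RefSeq, GRCh38.p14, minus strand in both; chr5:172771196-172771445 and chr11:1572272-1572521).
DUSP1: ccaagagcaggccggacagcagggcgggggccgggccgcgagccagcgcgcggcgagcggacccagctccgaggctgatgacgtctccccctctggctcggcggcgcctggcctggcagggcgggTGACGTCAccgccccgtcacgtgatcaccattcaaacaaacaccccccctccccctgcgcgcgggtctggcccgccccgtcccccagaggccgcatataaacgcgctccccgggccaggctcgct
DUSP8: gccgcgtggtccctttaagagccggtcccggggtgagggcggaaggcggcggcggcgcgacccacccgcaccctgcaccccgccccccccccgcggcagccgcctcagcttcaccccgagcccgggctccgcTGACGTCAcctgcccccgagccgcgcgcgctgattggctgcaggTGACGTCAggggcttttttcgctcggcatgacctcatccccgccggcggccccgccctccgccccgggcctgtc
Both strands were searched, and the element is its own reverse complement. It starts at position -125 in DUSP1 and at -118 and -74 in DUSP8, with no overlap with the other motifs searched, and 1.65% of the 35116 windows in the RefSeq table hold it. Of the members 8 have a window there, DUSP10 with 2; DUSP4 and DUSP5 are named only. The AP-1 element TGANTCA was found in 0 of the member windows against 6.57% of all. The κB-like pattern GGGNNNNNCC was in each of them, but 54.4% of all windows hold it, so it sets few windows apart. The ERK-directed DUSP6 is shown for contrast, with no cAMP response element and with its 2 κB-like matches in capitals (minus strand, chr12:89352502-89352751).
DUSP6: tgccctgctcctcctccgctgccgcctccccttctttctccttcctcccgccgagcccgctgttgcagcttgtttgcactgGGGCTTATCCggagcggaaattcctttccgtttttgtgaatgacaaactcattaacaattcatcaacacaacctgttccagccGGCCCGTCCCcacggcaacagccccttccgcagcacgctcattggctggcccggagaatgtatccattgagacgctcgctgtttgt
A match is a description of the letters and says nothing about binding.

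The AU-rich heptamer TATTTAT, a site for decay factors whose activity p38 signalling modifies, was found in the GENCODE transcripts (GRCh38) of 4 members. DUSP1 holds 3 copies in a 3′ UTR of 672 bases, DUSP2 1 copy in 657 bases, DUSP8 2 copies in 2474 bases and DUSP4 4 copies in 3962 bases. One site each is shown, in capitals, for DUSP1, DUSP2 and DUSP8.
DUSP1: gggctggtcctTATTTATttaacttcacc
DUSP2: ttagcactttaTATTTATacagaacattc
DUSP8: tttcgatttttTATTTATttaagctgttc
Among genes with a 3′ UTR within 20% of the same length, 18.4% hold the heptamer for DUSP1, 17.9% for DUSP2, 50.6% for DUSP8 and 62.5% for DUSP4. It was in 0 of the ERK-directed 3, and not in DUSP10, DUSP14 or DUSP16. The matching shares were 25.8% for DUSP5, 43.1% for DUSP6 and 40.8% for DUSP7. They were 23.5% for DUSP10, 17.1% for DUSP14 and 52.3% for DUSP16, so absence is common at these lengths and sets no class apart. These transcripts can be shorter or longer than the gene models used for counting.

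DUSP8, which acts on JNK and p38 (chromosome 11, 1575281 to 1593150), was at the edge of detection. Knockout cells had 1.26 and 0.542 RPKM with IL-1α and 0.730 RPKM without, and wild-type cells 0.440 and 0.689 RPKM with IL-1α and 0.429 RPKM without. The 2 knockout IL-1α replicates, from 123 and 72 reads, enclosed the unstimulated knockout library, and the genotypes overlapped under IL-1α. Its log2 difference between knockout and wild type under IL-1α was 0.36 (95% interval -0.50 to 1.21, limma adjusted p = 0.663), and -0.02 without knockout replicate 1. That replicate, at 1.26 RPKM, is the only library through which DUSP8 passed the filter. The knockout side of this difference thus holds the value that admitted the gene.

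DUSP16, a JNK- and p38-directed phosphatase that shuttles between cytoplasm and nucleus (chromosome 12, 12626216 to 12715448), had replicates far apart. Knockout cells had 2.07 and 0.885 RPKM with IL-1α and 1.82 RPKM without, and wild-type cells 1.02 and 1.82 RPKM with IL-1α and 1.30 RPKM without. Both IL-1α pairs enclosed their unstimulated library. Under IL-1α knockout and wild type differed by 0.01 on the log2 scale (95% interval -0.91 to 0.93, limma adjusted p = 0.995). This interval takes in a change of 0.532-fold to 1.90-fold in RPKM + 0.5, and a wider one in RPKM itself.

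DUSP10, the abundant p38/JNK-directed member (chromosome 1, 221874762 to 221915518, minus strand), was lower in knockout than in wild type, with IL-1α and without. In knockout it had 28.4 and 29.0 RPKM with IL-1α and 31.1 RPKM without. In wild type it had 37.1 and 44.4 RPKM with IL-1α and 35.3 RPKM without. The knockout IL-1α mean was 28.7 ± 0.36 RPKM and the wild-type mean 40.8 ± 5.17 RPKM (SD, n = 2 each). The log2 difference under IL-1α was -0.49 ± 0.16 (SE; 95% interval -0.89 to -0.10; unadjusted p = 0.022), which did not pass after adjustment over all genes (limma adjusted p = 0.265). In this comparison 4.93% of all genes were lower at unadjusted p under 0.05, and 16.3% had knockout libraries wholly below wild-type ones. Without stimulation the ratio of reads, scaled for depth, was 0.882 (95% exact interval 0.829 to 0.938, counting error only). A lower unstimulated log2 difference was seen in 36.1% of genes.

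The genotypes also stood on opposite sides of their unstimulated library for DUSP10. Both knockout IL-1α values lay below the unstimulated knockout value, with a log2 response of -0.11 (95% interval -0.60 to 0.37). Both wild-type IL-1α values lay above the unstimulated wild-type value, with a response of 0.20 (-0.28 to 0.68), which was 0.07 without wild-type replicate 2. The interaction, which tests this difference, was -0.31 (95% interval -1.0 to 0.37; limma adjusted p = 0.966) and did not pass. Of all genes tested, 4.46% showed the same order of libraries.

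The ERK-directed genes were higher with IL-1α in both genotypes, none of them past the test. DUSP5, a nuclear phosphatase that binds and inactivates ERK (chromosome 10, 112257625 to 112271302, plus strand), had 11.2 and 9.88 RPKM with IL-1α and 6.66 RPKM without in knockout. Wild-type cells had 11.0 and 8.88 RPKM with IL-1α and 5.45 RPKM without. In each genotype the IL-1α libraries lay above the unstimulated one, an order shown by 14.1% of all genes. The log2 response was 0.62 ± 0.23 in knockout (SE; 95% interval 0.07 to 1.18; unadjusted p = 0.0336, limma adjusted p = 1). In wild type it was 0.81 ± 0.23 (0.25 to 1.36; unadjusted p = 0.012, limma adjusted p = 0.178). The fitted folds were 1.54 in knockout and 1.75 in wild type, with a larger response in 3.69% of all genes in knockout and 3.37% in wild type. The pseudogene DUSP5P1, from which reads could be confused, was at 0.025 to 0.177 RPKM.

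DUSP6, the cytoplasmic ERK phosphatase (chromosome 12, 89741602 to 89746636), had 37.0 and 47.0 RPKM with IL-1α and 28.4 RPKM without in knockout. In wild type it had 43.2 and 36.9 RPKM with IL-1α and 30.7 RPKM without. Here too the IL-1α libraries lay above the unstimulated one in each genotype (14.1% of all genes). The log2 response was 0.55 in knockout (95% interval 0.00 to 1.10; limma adjusted p = 1) and 0.37 in wild type (-0.18 to 0.93; limma adjusted p = 0.433). Between genotypes under IL-1α the difference was 0.06 (-0.39 to 0.51). A difference in RPKM + 0.5 beyond 1.42-fold up or 0.763-fold down thus lay outside the interval.

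DUSP7, a second cytoplasmic ERK phosphatase (chromosome 3, 52082937 to 52090461), differed in its unstimulated level. Knockout cells had 30.5 and 29.6 RPKM with IL-1α and 25.8 RPKM without. In wild type it had 23.2 and 30.6 RPKM with IL-1α and 15.3 RPKM without. The unstimulated wild-type library was the lowest of the 6, while the IL-1α libraries of the genotypes overlapped. The log2 response was 0.22 in knockout (95% interval -0.33 to 0.76; limma adjusted p = 1) and 0.78 ± 0.23 in wild type (SE; 0.24 to 1.33; unadjusted p = 0.0126, limma adjusted p = 0.178). The interaction was -0.57 (-1.34 to 0.21; limma adjusted p = 0.966). The unstimulated ratio of knockout to wild type was 1.69 (95% exact interval 1.56 to 1.83, counting error only), and 5.87% of genes had a larger unstimulated log2 difference.

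**Figure D2:**
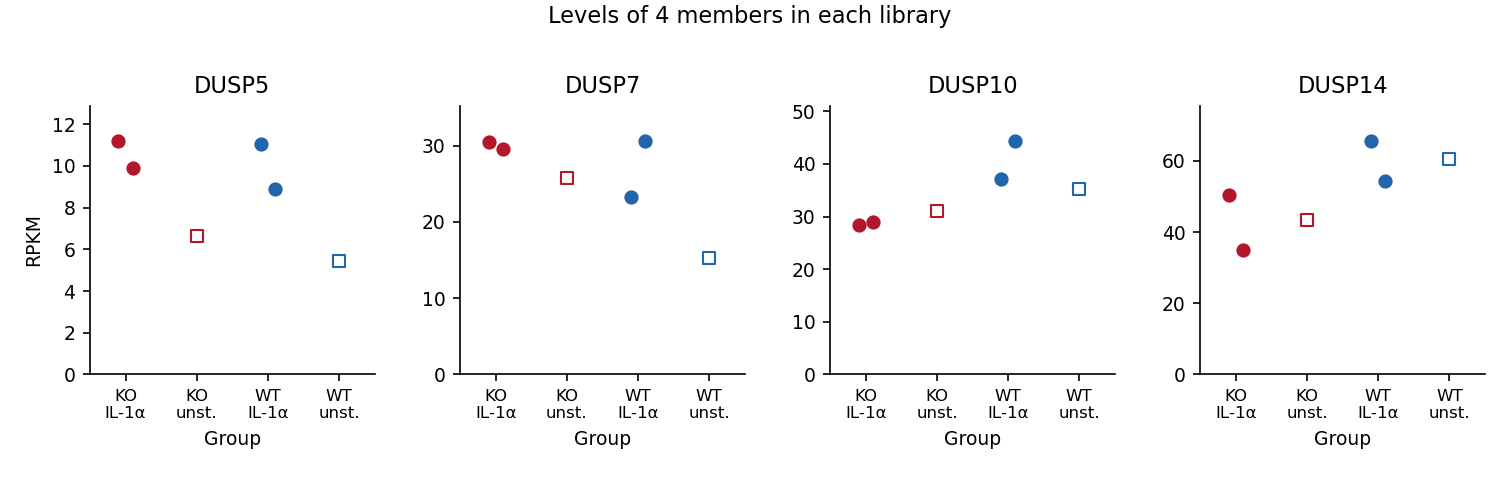
Level (RPKM, axis from 0) of DUSP5, DUSP7, DUSP10 and DUSP14 in each library, with knockout in red, wild type in blue, IL-1α filled and unstimulated open. Under IL-1α the knockout points of DUSP10 and DUSP14 lie below the wild-type points (16.3% of all genes), and the unstimulated wild-type point of DUSP7 is its lowest at 15.3 RPKM.

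DUSP14, a small atypical member without the kinase-binding domain of the others (chromosome 17, 35849951 to 35873588, plus strand), had the highest mean of the 10 and was lower in knockout. Its levels were 50.4 and 35.1 RPKM with IL-1α and 43.5 RPKM without in knockout, against 65.7 and 54.5 RPKM with IL-1α and 60.7 RPKM without in wild type. Under IL-1α the knockout libraries lay below the wild-type ones, as for 16.3% of all genes. The log2 difference under IL-1α was -0.50 (95% interval -1.04 to 0.03; limma adjusted p = 0.353), -0.25 without knockout replicate 2 and -0.76 without knockout replicate 1. Unstimulated, the read ratio was 0.717 (0.672 to 0.765, counting error only), and 17.8% of genes had a lower unstimulated log2 difference. IL-1α gave -0.05 in knockout (-0.70 to 0.61) and -0.02 in wild type (-0.67 to 0.63) on the log2 scale.

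DUSP4, a nuclear phosphatase of ERK, JNK and p38 (chromosome 8, 29190579 to 29208267), was the steadiest member. Knockout cells had 16.3 and 17.4 RPKM with IL-1α and 15.7 RPKM without, and wild-type cells 15.4 and 16.3 RPKM with IL-1α and 13.5 RPKM without. Its highest library was 1.28 times its lowest. Knockout less wild type under IL-1α came to 0.08 on the log2 scale (95% interval -0.29 to 0.46; limma adjusted p = 0.83).

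DUSP2, a nuclear phosphatase best known from activated leukocytes (chromosome 2, 96808908 to 96811179), had 1.39 and 0.800 RPKM with IL-1α and 1.52 RPKM without in knockout, and 1.39 and 0.900 RPKM with IL-1α and 1.07 RPKM without in wild type. It had 28 to 89 reads a library. Its log2 response was -0.36 in knockout (95% interval -1.27 to 0.54; limma adjusted p = 1; -0.09 without knockout replicate 2 and -0.63 without knockout replicate 1) and 0.05 in wild type (-0.85 to 0.96; limma adjusted p = 0.953).

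Across the family, 0 of 10 members passed at an adjusted p of 0.05 in any comparison in limma. At an unadjusted p under 0.05 there was 1 member in knockout (DUSP5), 2 in wild type (DUSP5 and DUSP7), 1 between genotypes under IL-1α (DUSP10) and 0 in the interaction. With voom weights the adjusted count was again 0 in each comparison, with 2, 2, 1 and 0 members at unadjusted p under 0.05. The adjusted test called 0.0696% of 12925 genes for the response in knockout, 0.217% in wild type, 0.155% between genotypes under IL-1α and 0.0% for the interaction, so 0 of 10 is near the background in each. Among all genes, 2.53% were higher and 1.05% lower at unadjusted p under 0.05 in knockout, and 4.69% higher and 13.4% lower in wild type. Between genotypes under IL-1α 9.97% were higher and 4.93% lower at that level, and in the interaction 3.76% were higher and 0.627% lower. Without stimulation 0 members were past 2-fold, against 6.53% of genes. 

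The order of the libraries was also counted. In knockout both IL-1α libraries lay above the unstimulated one for 5 of 10 members and below it for 2 (DUSP2 and DUSP10), against 27.8% and 36.4% of all genes. In wild type they lay above it for 6 members and below it for 0, against 27.5% and 54.3% of all genes. Under IL-1α the knockout libraries lay below the wild-type ones for DUSP10 and DUSP14 (16.3% of genes) and above them for 0 members (32.4% of genes). IL-1α libraries lay wholly above the unstimulated one in both genotypes for DUSP4, DUSP5, DUSP6 and DUSP7, an order shown by 14.1% of genes. The interaction was above 0 for 2 of 10 members, against 60.4% of genes, and the unstimulated difference between genotypes for 6 of 10, against 48.5%.

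**Figure D3:**
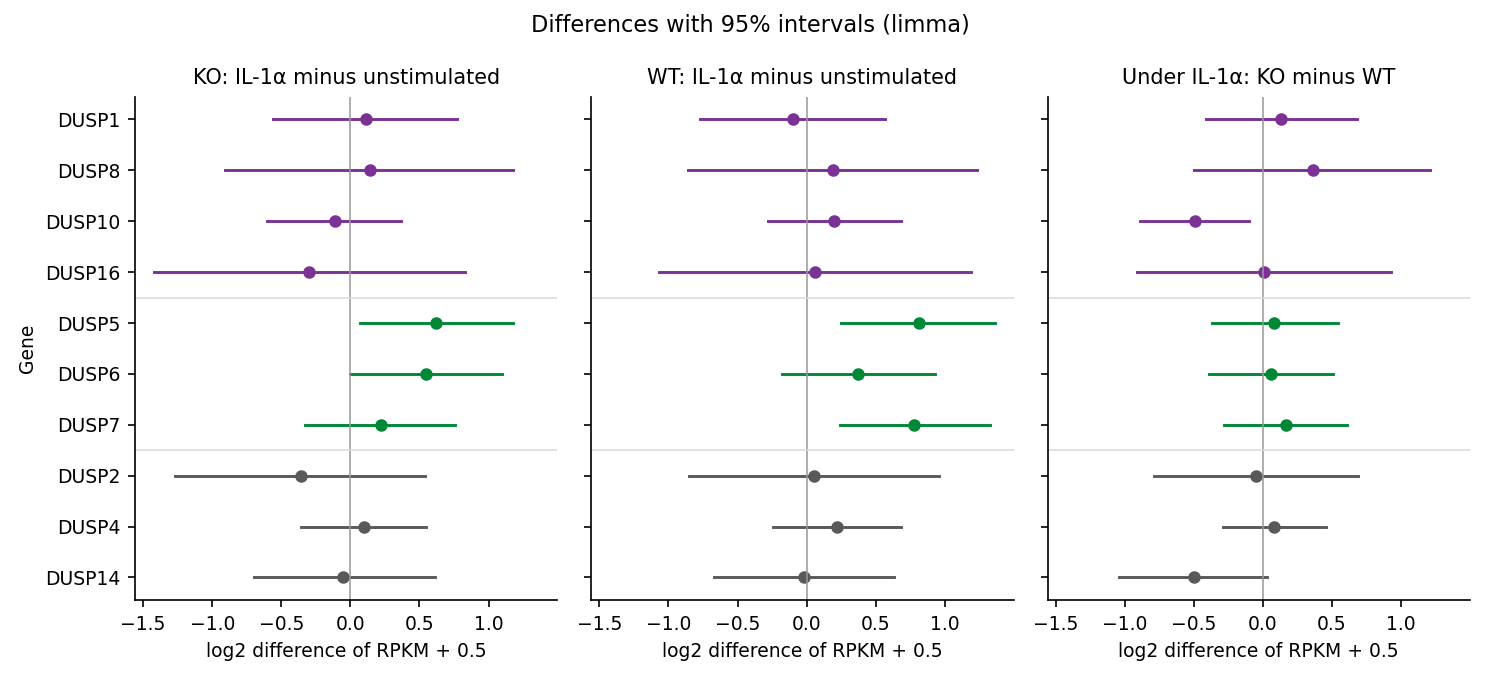
Fitted log2 difference of each member (points) with its 95% interval (lines) for the IL-1α response in knockout, that in wild type, and knockout against wild type under IL-1α; purple is p38/JNK-directed, green ERK-directed and grey neither. In the response panels the green points lie between 0.22 and 0.81, and in the third panel DUSP10 at -0.49 has an interval below 0.

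With IL-1α the ERK-directed genes lay further above 0 than the p38/JNK-directed ones in both genotypes. The ERK-directed genes had a median log2 response of 0.55 in knockout and 0.78 in wild type, with all 3 above 0 in each. For the 4 p38/JNK-directed genes the median was 0.00 in knockout, with 2 above 0, and 0.12 in wild type, with 3 above 0. All genes tested had a median of -0.02 in knockout (47.0% above 0) and -0.14 in wild type (36.8% above 0). With libraries rescaled to remove that shift, DUSP5 stood at 0.94, DUSP6 at 0.52 and DUSP7 at 0.93 in wild type, and DUSP1 at 0.02, DUSP8 at 0.26, DUSP10 at 0.35 and DUSP16 at 0.17. The offset of 0.5 RPKM shrinks the responses of low genes, here DUSP1, DUSP8 and DUSP16. With voom weights the wild-type responses were 0.86, 0.38 and 0.80 for DUSP5, DUSP6 and DUSP7. They were -0.13, 0.37, 0.20 and 0.08 for DUSP1, DUSP8, DUSP10 and DUSP16, so DUSP8 lay beside DUSP6. In knockout voom gave 0.66, 0.56 and 0.22, and 0.13, 0.13, -0.12 and -0.47, in the same order. DUSP8 entered these fits only through 1 knockout IL-1α library. Between genotypes under IL-1α the classes had medians of 0.07 (p38/JNK-directed) and 0.08 (ERK-directed), beside 0.09 for all genes, with 61.0% of genes above 0. Members were chosen with results in view, so these counts carry no test.

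The p38/JNK-directed sum over the ERK-directed sum was 0.435 and 0.379 in knockout with IL-1α and 0.590 without. In wild type it was 0.530 and 0.638 with IL-1α and 0.765 without. Both IL-1α values lay below the unstimulated one in each genotype, and the knockout IL-1α values below the wild-type ones. The ERK-directed sum was 78.7 and 86.4 RPKM in knockout with IL-1α and 60.8 RPKM without, against 77.5 and 76.5 RPKM with IL-1α and 51.5 RPKM without in wild type. The p38/JNK-directed sum was 34.3 and 32.8 RPKM in knockout with IL-1α and 35.9 RPKM without, against 41.1 and 48.8 RPKM with IL-1α and 39.4 RPKM without in wild type. DUSP10 makes up most of the p38/JNK-directed sum, so the ratio largely follows DUSP10 and the 3 ERK-directed genes.

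**Figure D4:**
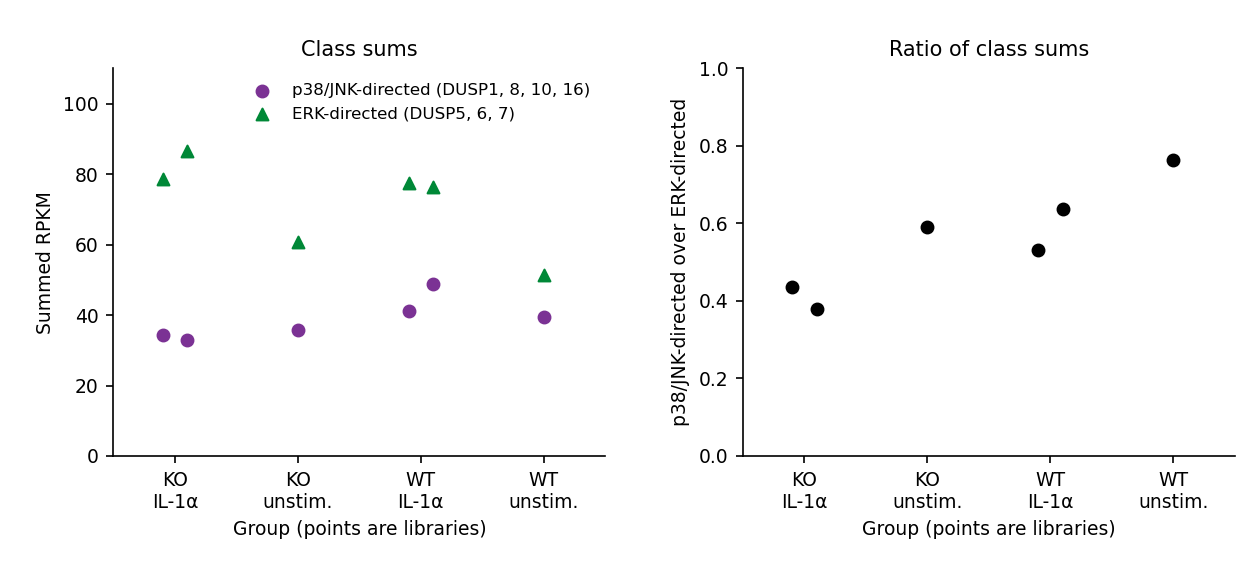
Left, summed RPKM of the p38/JNK-directed (circles) and ERK-directed (triangles) genes in each library; right, the ratio of these sums. The ratio is lowest in the knockout IL-1α libraries (0.435 and 0.379) and highest in the unstimulated wild-type library (0.765).

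Of genes around the phosphatases, 0 of the 5 pathway lists held a gene past the adjusted test in any tested comparison, in limma or with voom weights. At unadjusted p under 0.05, limma gave 2 of 46 tested list genes higher in the knockout response, 3 higher and 4 lower in the wild-type response, 7 higher and 1 lower between genotypes under IL-1α, and 1 higher in the interaction. The shares over all genes were those given above for the family (2.53% higher in the knockout response, 4.69% higher and 13.4% lower in the wild-type response, 9.97% higher and 4.93% lower between genotypes, 3.76% higher in the interaction). Among 15 other dual-specificity phosphatases, of which 9 were tested and 5 were at 0 everywhere, DUSP9, a further ERK-directed phosphatase, had the smallest p. It had 4.20 and 4.03 RPKM in knockout IL-1α libraries and 5.84 RPKM in the unstimulated one, against 2.61 and 2.95 RPKM and 5.77 RPKM in wild type. Its log2 response was -0.46 in knockout (limma adjusted p = 1) and -0.93 in wild type (limma adjusted p = 0.152), opposite in sign to DUSP5, DUSP6 and DUSP7. Of 9 MAP kinase phosphatases outside the dual-specificity family, PPP2CB, a catalytic subunit of protein phosphatase 2A, had the smallest p in knockout, at 0.35 (limma adjusted p = 1), and the tyrosine phosphatase PTPRR in wild type, at -0.93 (limma adjusted p = 0.278).

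Of 13 p38 and JNK kinases and activators, 12 tested, MAP2K3, which phosphorylates p38, had the smallest p in both responses. It had 84.2 and 105 RPKM in knockout with IL-1α and 51.7 RPKM without, against 79.1 and 79.9 RPKM with IL-1α and 45.2 RPKM without in wild type. The log2 response was 0.86 in knockout (limma adjusted p = 0.641) and 0.81 in wild type (limma adjusted p = 0.159). MAP2K6, another p38 activator, was higher in knockout, with 3.15 and 1.79 RPKM under IL-1α against 0.430 and 0.524 RPKM in wild type (log2 1.57, limma adjusted p = 0.15). Unstimulated, it had 3.87 RPKM in knockout and 0.612 RPKM in wild type (log2 1.97), the 1 gene of the 5 lists past 2-fold there.

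The 7 ERK cascade kinases had medians of -0.02 in knockout and -0.07 in wild type. Of 13 ERK feedback and target genes, 11 were tested, and 9 in knockout and 8 in wild type were above 0 with IL-1α. The shares of all genes were 47.0% and 36.8%. In wild type these genes ran from -0.72 to 1.06. There 2 were higher and 2 lower at unadjusted p under 0.05 in limma, against 4.69% and 13.4% of all genes. IER3, an early response gene at 0.671 to 2.15 RPKM, had the smallest p in knockout (log2 1.02, limma adjusted p = 0.912). In wild type it was the ETS factor ETV4 (-0.59, limma adjusted p = 0.207). In the interaction the 1 list gene at unadjusted p under 0.05 was DUSP28, a small atypical phosphatase, at 1.24 (unadjusted p = 0.0352, limma adjusted p = 0.966). ETV5, a related factor, had 3.71 and 4.84 RPKM in knockout IL-1α libraries against 1.55 and 1.84 RPKM in wild-type ones (log2 1.12; limma adjusted p = 0.161).

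Over the 6 libraries, the genes whose log2 level was most like that of DUSP10 among 8422 with a mean of at least 5 RPKM were ZNF354A (Pearson r = 0.964), EXOC3 (0.962) and SETDB1 (0.962), and those most like DUSP6 were ZNF800 (0.989), ADAM8 (0.988) and INPP1 (0.982). With 6 libraries in 4 groups, 29 genes were above 0.9 for DUSP10 and 98 for DUSP6. ADAM8, a metalloprotease, had 54.5 and 96.9 RPKM in knockout with IL-1α and 36.6 RPKM without, against 74.4 and 59.3 RPKM with IL-1α and 44.0 RPKM without in wild type.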

How the data were processed

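Stranded mRNA libraries were prepared from RNA purified with TRIzol and RNeasy, per the labels' protocols. Reads were demultiplexed with bcl2fastq (2.20.0.422), aligned with STAR and counted with HOMER on hg19, per the submitters' processing notes; other versions and the strand setting of the counting are not given in the sources used here, so reads of overlapping genes on the other strand may be included. The authors deposited RPKM per gene symbol over exons (also written FPKM in the file headers). Values were used as deposited.

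Depth was recovered as the read number that turned RPKM values of 0.02 to 1 into whole counts (97.9% to 99.8% within 0.1 read) and was used for read numbers, exact intervals and voom. Genes with at least 1 RPKM in 1 library entered limma (3.58.1, on R 4.3.3) on the log2(RPKM + 0.5) scale. The model had a term for each group and a trended prior variance, and p-values were adjusted over all these genes (Benjamini-Hochberg, 0.05). Fold changes are on this scale, which understates those of low genes. The spread came from the replicated groups alone (2 residual and 4.2 prior degrees of freedom). Unstimulated genotypes, with 1 library each, were compared without a test. The script was tested on simulated data.

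All 10 members are named; from each of 5 pathway lists, genes past the test, otherwise that of smallest p; 1 such gene is not reported here. For likeness, the 3 genes of highest correlation with the most abundant gene of each class were named. Members and lists were chosen with earlier results of these data known. Promoter windows are from RefSeq and 3′ UTRs from GENCODE transcripts matched by RefSeq accession. Alternatives were other pseudocounts (0.1 and 1), no filter, rescaling, voom, removal of a length trend, a replicate block and leaving out libraries.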

Additional observations from a re-analysis of the deposited data

Results flagged for a closer look

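DUSP10 was picked out because both knockout IL-1α libraries lay below their unstimulated library (28.4 and 29.0 against 31.1 RPKM) and both wild-type IL-1α libraries above theirs (37.1 and 44.4 against 35.3 RPKM). The wild-type response was 0.20, and 0.07 without wild-type replicate 2. The interaction was -0.31 on the log2 scale and did not pass (limma adjusted p = 0.966); the settings tried gave -0.44 to -0.19. IL-1α libraries on opposite sides of the unstimulated one in the 2 genotypes were found for 13.2% of all genes tested.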

How the results depend on the processing

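In no comparison did a member pass under any setting tried. Over all settings the wild-type response ran from 0.66 to 0.97 for DUSP5 and from 0.59 to 0.98 for DUSP7, and the knockout response from 0.54 to 0.71 for DUSP5 and from 0.38 to 0.72 for DUSP6. The difference of DUSP10 between genotypes under IL-1α ran from -0.62 to -0.37, with a lowest limma adjusted p of 0.163.

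In the tested comparisons 37 log2 values of members changed sign before rounding; the cause was not tested. In the wild-type response, median-of-ratios rescaling gave DUSP1 0.02 and DUSP14 0.13, and removing the length trend gave DUSP1 0.13, DUSP14 0.33 and DUSP16 -0.05. Between genotypes under IL-1α, rescaling gave DUSP4 -0.02, DUSP5 -0.02, DUSP6 -0.04 and DUSP16 -0.07. Removing the length trend gave DUSP4 -0.08, DUSP6 -0.05 and DUSP16 -0.16 there, voom gave DUSP16 -0.07 and a pseudocount of 0.1 gave DUSP16 0.00. With 1 IL-1α library left out, the knockout response ran from -0.24 to 0.52 for DUSP8, from -0.31 to 0.21 for DUSP14, from -0.74 to 0.15 for DUSP16 and from -0.63 to -0.09 for DUSP2, which kept its sign. The wild-type response ran from -0.28 to 0.08 for DUSP1, from -0.16 to 0.27 for DUSP2, from -0.15 to 0.11 for DUSP14 and from -0.24 to 0.36 for DUSP16. Knockout against wild type under IL-1α ran from -0.04 to 0.31 for DUSP1, from -0.32 to 0.22 for DUSP2, from -0.07 to 0.23 for DUSP5, from -0.11 to 0.23 for DUSP6, from -0.03 to 0.36 for DUSP7, from -0.02 to 0.73 for DUSP8 and from -0.44 to 0.45 for DUSP16. The interaction ran from -0.43 to 0.33 for DUSP8, from -0.29 to 0.23 for DUSP14 and from -0.80 to 0.09 for DUSP16. Without stimulation, removing the length trend turned DUSP1 to 0.06 and DUSP4 to -0.02, and moved DUSP14 to -0.24 and DUSP16 to 0.10.

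Counts over all genes depended on the setting. For the knockout response limma called 9 genes as reported, 5 with a pseudocount of 1, 65 without the filter, 2 with voom, 21 without the length trend and 0 with any IL-1α library left out. For the wild-type response it called 28 as reported, 49 without the filter, 48 after rescaling, 11 with voom, 96 without the length trend and 0 to 46 with a library left out. Between genotypes under IL-1α it called 20 as reported, 7 with a pseudocount of 0.1, 0 without the filter, 55 with voom, 40 without the length trend and 0 with any library left out. The interaction had 0 as reported and 87 without the filter. Leaving out a library leaves 1 replicated pair to measure the spread, and the lone library is assumed to vary like it.

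Same-numbered IL-1α libraries did not deviate together (r = 0.009 across 12925 genes), so the numbers were not taken as pairs. With the replicate block 18 genes passed in the knockout response, 81 in the wild-type response and 58 between genotypes, and 0 members.

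With DUSP2 and DUSP4 added to the ERK-directed class, the class ratio was 0.335 in knockout with IL-1α and 0.460 without, and 0.479 in wild type with IL-1α and 0.596 without. Leaving out members under 1 RPKM in every library changed nothing, since there were 0 of them. Read numbers were lowest for DUSP2 (28 to 89 a library) and DUSP8 (32 to 123), which limits their precision.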
